A study of Homo sapiens with 8 samples.

Results

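The genes described here are 10 components and hypoxia-responsive targets of the HIF1A pathway, chosen by name: HIF1A, ARNT, VHL, EGLN1, EGLN2, EGLN3, HIF1AN, BNIP3, BNIP3L and VEGFA. Of the 10, 9 had a row of their own among the 13453 gene rows of the deposited expression table, and 8 of these passed the minimum mean of 1 FPKM (fragments mapped to a gene, scaled to its transcript length and to the library's total) that left 11427 genes for testing. EGLN3, with a mean of 0.767 FPKM, fell below that minimum. EGLN2 appeared only in a row shared with MIA and RAB4B.

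RNA was sequenced from 8 libraries of Jurkat cells, a human T-cell acute lymphoblastic leukemia line, with 2 libraries in each of 4 conditions. In the shRNA set, cells stably expressing a control shRNA (sh-Ctrl) were compared with cells expressing an shRNA against CBAP, the protein encoded by TMEM102 (CBAP knockdown). In the CRISPR/Cas9 set, CBAP-knockout cells expressing GFP (CBAP knockout) were compared with knockout cells given back CBAP as a GFP fusion (CBAP-reconstituted), so that every library of this set came from knockout cells. The study treated sh-Ctrl and CBAP-reconstituted cells as CBAP-expressing and the other two conditions as CBAP-deficient, and asked which transcripts depend on CBAP. The shRNA lines were drug-selected and the knockout lines were derived from single cells, so a condition here stands for a line or clone. No source used here said whether the 2 libraries of a condition came from separate cultures, so p-values measured the spread between those libraries, which may be technical.

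HIF1A encodes the oxygen-regulated subunit of hypoxia-inducible factor, which pairs with ARNT and binds hypoxia response elements in the DNA of its target genes. When oxygen is plentiful, the prolyl hydroxylases EGLN1, EGLN2 and EGLN3 modify HIF1A protein, VHL then recognizes it and directs its ubiquitination and degradation, and the asparagine hydroxylase HIF1AN blocks its binding to coactivators. Well-known target genes include VEGFA, a secreted growth factor for blood vessels, BNIP3 and BNIP3L, mitochondrial outer membrane proteins that act in mitophagy and cell death, EGLN3 itself, and the enzymes of glycolysis. HIF1A is regulated strongly at the level of its protein, which transcript values do not measure.

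The upstream DNA of BNIP3 and EGLN3 is shown for the following reason. Of the 9 genes with a row of their own, these were the 2 called lower in the CBAP-deficient cells of both sets by the tests given below. EGLN3 was tested only without the minimum FPKM. Both sequences are RefSeq promoters on GRCh38.p14, 5′ to 3′ on the minus strand, covering the 250 bases before the annotated start, with chr10:131981924-131982173 for BNIP3 and chr14:33951075-33951324 for EGLN3. Capitals mark matches on either strand to ACGTG or GCGTG, the core letters of a hypoxia response element, so that CACGT and CACGC are the same letters read from the other strand.
BNIP3: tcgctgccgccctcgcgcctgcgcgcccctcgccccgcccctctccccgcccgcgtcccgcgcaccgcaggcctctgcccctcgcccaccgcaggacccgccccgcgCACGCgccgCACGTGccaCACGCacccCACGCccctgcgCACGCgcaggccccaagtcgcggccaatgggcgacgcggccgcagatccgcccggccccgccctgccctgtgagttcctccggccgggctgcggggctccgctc
EGLN3: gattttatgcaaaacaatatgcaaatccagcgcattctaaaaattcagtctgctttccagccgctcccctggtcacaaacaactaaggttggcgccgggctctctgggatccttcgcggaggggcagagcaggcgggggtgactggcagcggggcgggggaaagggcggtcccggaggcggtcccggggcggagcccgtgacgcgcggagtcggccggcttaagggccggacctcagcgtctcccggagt
The BNIP3 window held 6 matches, 2 of which overlap in the palindrome CACGTG, and they lay between 143 and 104 bases before the start. The EGLN3 window held 0. Of 34943 promoters of the same length, 43.2% held at least 1 match and 0.641% held 6 or more. HIF1A held 1 match, EGLN1 held 1, EGLN2 held 2 that overlap, and ARNT and HIF1AN held 0. VHL, BNIP3L and VEGFA were not matched in the promoter table. A match is a description of letters and was not tested as a binding site.

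TMEM102 was examined first because it is the targeted gene. It measured 4.07 and 4.74 FPKM in the sh-Ctrl libraries and 2.69 and 2.89 FPKM in the knockdown libraries, a log2 change of −0.51 (limma, adjusted p = 0.0287). It was listed at 0 in both knockout libraries and also in both libraries labelled CBAP-reconstituted, so the labels of the CRISPR set could not be checked on this gene. Of 12 T lineage markers, 11 had a row, and their summed level ran from 1593 to 2580 FPKM over the 8 libraries. That sum was 2132 to 2580 FPKM in the knockout libraries and 1593 to 1599 FPKM in those labelled CBAP-reconstituted. The defining T cell genes CD3D (446 to 553 FPKM) and CD3E (364 to 1022 FPKM) were present in every library. CD3G, CD247, CD7, LCK, ZAP70 and PTPRC were at 38.15 FPKM or more in every library. Other markers of the list reached lower levels, with CD5 from 0.180 to 27.4 FPKM, CD28 from 2.59 to 37.5 FPKM and CD2 from 10.3 to 83.8 FPKM. The myeloid markers had no row (0 of 5), and 1 of 5 B cell markers, CD79A, was at 0.732 and 1.09 FPKM in the libraries labelled CBAP-reconstituted and between 9.60 and 22.5 FPKM in the others. The erythroid gene HBA1 reached 4.25 FPKM and the fibroblast gene COL1A1 2.15 FPKM, each the only marker of its list with a row. In such bulk RNA, fewer cells of a type and less RNA per cell cannot be told apart. Values above 0 and below 0.1 FPKM numbered 8 to 37 genes per library in the shRNA set and 259 to 337 in the CRISPR set, so set, clone and processing cannot be told apart in comparisons across the sets. The part of the marker shifts in the results below was not tested.

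In the shRNA set, HIF1A transcripts were higher in the CBAP-knockdown cells than in sh-Ctrl cells, while VEGFA and BNIP3 transcripts were lower. These were the 3 of 8 tested members called in this comparison, 1 higher and 2 lower, where 12.3% of all genes tested were called. In the CRISPR set the HIF1A transcript did not pass the test, BNIP3 and BNIP3L were lower in the knockout, and ARNT and VEGFA were higher. The 4 of 8 members called there, 2 in each direction, compare with 49.9% of all genes tested, a share near that of the members, and directions in this set rest on labels that TMEM102 could not check. When the 4 CBAP-deficient libraries were set against the 4 CBAP-expressing ones, limma called 0 of 8 members (0.621% of all genes were called), and 3 had an unadjusted p under 0.05. This comparison had no term for the set. With the set as a covariate, limma called BNIP3 (adjusted p = 0.0214) and 1404 of 11427 genes in all. In 0 of the 8 members were all 4 deficient libraries lower or all 4 higher than the 4 expressing libraries, a separation that 10.3% of all genes showed as lower and 4.67% as higher.

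HIF1A (chr14:62162231-62214977 on GRCh37, plus strand) measured 27.5 and 28.2 FPKM in sh-Ctrl cells and 39.2 and 51.0 FPKM in knockdown cells. The libraries labelled CBAP-reconstituted measured 35.1 and 34.8 FPKM and the knockout libraries 34.5 and 36.9 FPKM. Both knockdown libraries were above all 6 others, both sh-Ctrl libraries were below all others, and the CRISPR-set conditions overlapped. HIF1A rose in the knockdown by 0.67 on the log2 scale of FPKM + 1 (SE 0.12, adjusted p = 0.0265), a 1.62-fold higher mean. In the CRISPR set the log2 change was 0.03 (SE 0.12, adjusted p = 0.867). The change in the shRNA set exceeded that in the CRISPR set by 0.64 (adjusted p = 0.0363). This difference was 1 of 2 members called by the test between the sets, which called 33.8% of all genes.
For any gene here, a library outside the 2 conditions compared enters only through the shared estimate of spread. Leaving such a library out cannot move the log2 change. Fits without a CRISPR-set library called fewer of all genes in the knockdown. The HIF1A calls were lost in several fits that left out 1 library. The knockdown call missed the threshold without sh-Ctrl replicate 1 or 2 (adjusted p = 0.0909 and 0.0748), without CBAP-reconstituted replicate 1 or 2 (0.0786 and 0.079) and without CBAP knockout replicate 1 or 2 (0.0553 and 0.055), and the difference between the sets missed it without the same 6 libraries (0.0754 to 0.117), while the log2 changes stayed between 0.48 and 0.85 for the knockdown and between 0.45 and 0.82 for the difference.

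ARNT (chr1:150782189-150849184, minus strand), the constitutive partner of HIF1A, measured 12.9 and 11.8 FPKM in sh-Ctrl cells, 11.4 and 13.5 FPKM in knockdown cells, 9.60 and 10.6 FPKM in the libraries labelled CBAP-reconstituted and 14.2 and 14.9 FPKM in knockout cells. The shRNA-set libraries overlapped, and the knockout libraries were above all others. ARNT rose in the knockout by 0.48 (SE 0.10, adjusted p = 0.0109) and had a log2 change of 0.01 in the knockdown (adjusted p = 0.965). The difference between the sets was −0.47 (adjusted p = 0.0519). The knockout call missed the threshold without CBAP-reconstituted replicate 1 (adjusted p = 0.0748) or CBAP knockout replicate 2 (0.0586).

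VHL (chr3:10183462-10195351, plus strand), the substrate-recognition subunit of the ubiquitin ligase for HIF1A, had 37.2 and 42.1 FPKM in sh-Ctrl cells and 34.0 and 35.2 FPKM in knockdown cells. It had 46.1 and 45.8 FPKM in the libraries labelled CBAP-reconstituted and 47.2 and 47.6 FPKM in the knockout. No condition overlapped another, and the CRISPR-set libraries were all above the shRNA-set libraries. Within the sets neither change passed the test, with −0.19 in the knockdown (SE 0.07, adjusted p = 0.128) and 0.05 in the knockout (SE 0.07, adjusted p = 0.613). Under quantile normalization the knockout change was 0.20 (adjusted p = 0.0302), and under median scaling it was −0.02 (adjusted p = 0.827).

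Among the prolyl hydroxylases, EGLN1 (chr1:231499497-231558033, minus strand) measured 9.51 and 6.79 FPKM in sh-Ctrl cells, 5.51 and 6.84 FPKM in knockdown cells, 5.16 and 4.96 FPKM in the libraries labelled CBAP-reconstituted and 6.96 and 7.04 FPKM in knockout cells. The shRNA-set conditions overlapped, and the CRISPR-set conditions did not overlap. The log2 change was −0.34 in the knockdown (SE 0.16, adjusted p = 0.223) and 0.40 in the knockout (SE 0.16, adjusted p = 0.0868), and the difference between these missed the threshold (−0.74, adjusted p = 0.0536). The knockout change passed the threshold without sh-Ctrl replicate 1 or 2, at adjusted p-values down to 0.0334, and in a fit to the CRISPR set alone (0.00457). The annotation places 3004 exonic bases of EGLN1 also in an overlapping protein-coding model on the same strand, which had no row.
EGLN3 (chr14:34393433-34931980, minus strand), a hydroxylase that is also a HIF target, was expressed at the lowest level of the 9 genes on the FPKM scale. It measured 0.721 and 0.555 FPKM in sh-Ctrl cells, 0.0788 and 0.0157 FPKM in knockdown cells, 1.82 and 1.97 FPKM in the libraries labelled CBAP-reconstituted and 0.605 and 0.375 FPKM in knockout cells. In each set both deficient libraries were below both expressing libraries. Across the sets, knockout replicate 1 lay above sh-Ctrl replicate 2. In the fit without a minimum FPKM, EGLN3 fell by 0.64 in the knockdown (SE 0.10, adjusted p = 0.019) and by 0.96 in the knockout (SE 0.10, adjusted p = 0.000983), and the difference between the sets was 0.32 (adjusted p = 0.138). The pseudocount of 1 FPKM understates changes at such levels, and the read depth behind these values is unknown. The fit without a minimum called 1569 of 13293 genes in the knockdown and 6347 in the knockout. EGLN3 was not refitted with 1 library left out, so the dependence of its calls on single libraries was not tested.
The row shared by EGLN2, MIA and RAB4B measured 60.0 and 61.0 FPKM in sh-Ctrl cells, 47.0 and 41.4 FPKM in knockdown cells, 67.3 and 70.0 FPKM in the libraries labelled CBAP-reconstituted and 62.1 and 63.4 FPKM in knockout cells. Its log2 change was −0.45 in the knockdown (adjusted p = 0.0184) and −0.13 in the knockout (adjusted p = 0.175). These values cannot be assigned to EGLN2 (chr19:41304901-41314339).

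HIF1AN (chr10:102288829-102319755, plus strand), the asparagine hydroxylase, varied least, with 1.07-fold between its highest and lowest library. It measured 16.6 and 15.6 FPKM in sh-Ctrl cells, 15.7 and 16.7 FPKM in knockdown cells, 16.6 FPKM in both libraries labelled CBAP-reconstituted and 15.7 and 15.6 FPKM in knockout cells. The log2 change was 0.01 in the knockdown (SE 0.06, adjusted p = 0.951) and −0.08 in the knockout (SE 0.06, adjusted p = 0.31). HIF1AN shares 325 exonic bases with NDUFB8 on the opposite strand, and the sources used here do not say whether strand was used in the counting.

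**Figure D1:**
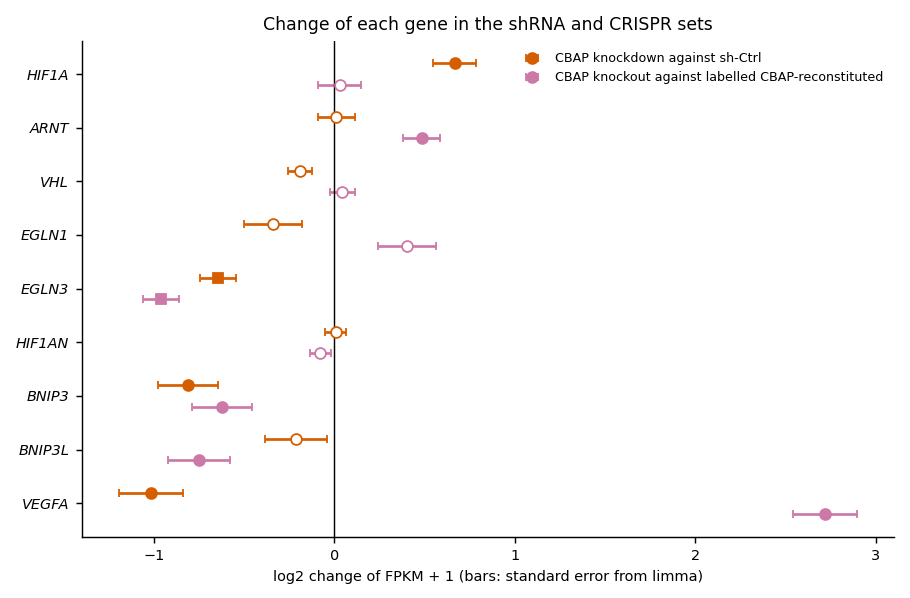
Log2 change of FPKM + 1 (horizontal axis) with its standard error for the 9 genes, in the shRNA set (orange) and in the CRISPR set (pink), where filled symbols have an adjusted p under 0.05 in limma and squares mark EGLN3, fitted without the minimum FPKM. BNIP3, EGLN3 and BNIP3L were on the negative side in both sets, with BNIP3L called only in the knockout, and VEGFA was at −1.02 in the knockdown and 2.72 in the knockout.

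BNIP3 (chr10:133781188-133795471, minus strand) was the only member of the 8 tested that was called lower in both sets. In any direction, 2 of the 8 were called in both sets (BNIP3 and VEGFA), compared with 942 of all 11427 genes. It measured 28.0 and 20.2 FPKM in sh-Ctrl cells and 12.2 and 14.1 FPKM in knockdown cells, and 12.7 and 12.4 FPKM in the libraries labelled CBAP-reconstituted and 7.17 and 8.51 FPKM in knockout cells. Within each set the conditions did not overlap, but the knockdown libraries lay on both sides of those labelled CBAP-reconstituted. BNIP3 fell by 0.81 in the knockdown (SE 0.17, adjusted p = 0.0346) and by 0.62 in the knockout (SE 0.17, adjusted p = 0.0251), and the difference between the sets was −0.19 (adjusted p = 0.562). Over all 8 libraries the change was −0.72 (adjusted p = 0.229), and it passed the threshold with the set as a covariate (adjusted p = 0.0214). The annotation lists 44 BNIP3 pseudogenes, so reads could be shared with near-identical copies.
The BNIP3 call in the knockdown was lost with the replicate number as a block (adjusted p = 0.0692), without sh-Ctrl replicate 1 (0.0769, with a log2 change of −0.59), without CBAP knockdown replicate 1 (0.0784), without CBAP-reconstituted replicate 1 or 2 (0.0933 and 0.0937) and without CBAP knockout replicate 1 or 2 (0.0607 and 0.0608). The call in the knockout was lost without CBAP-reconstituted replicate 1 or 2 (0.112 and 0.0988) or CBAP knockout replicate 1 (0.11).

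BNIP3L (chr8:26240570-26363152, plus strand), the paralog of BNIP3, measured 35.9 and 24.6 FPKM in sh-Ctrl cells, 24.2 and 26.9 FPKM in knockdown cells, 35.5 and 37.1 FPKM in the libraries labelled CBAP-reconstituted and 20.7 and 21.5 FPKM in knockout cells. The sh-Ctrl libraries lay far apart, and the lower of them was inside the range of the knockdown libraries. BNIP3L fell in the knockout by 0.75 (SE 0.17, adjusted p = 0.0145), and its log2 change in the knockdown was −0.21 (SE 0.17, adjusted p = 0.452). The difference between the sets was 0.54 (adjusted p = 0.139). Without sh-Ctrl replicate 2 the knockdown change passed the threshold (−0.48, adjusted p = 0.0461), and the knockout call was lost without CBAP-reconstituted replicate 1 or 2 (0.0649 and 0.0792) or CBAP knockout replicate 1 or 2 (0.0611 and 0.0523). In the annotation used for positions, BNIP3L shares 330 exonic bases with PNMA2 on the opposite strand.

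VEGFA (chr6:43737921-43754224, plus strand) changed most among the tested members and in opposite directions in the sets. It measured 4.78 and 2.98 FPKM in sh-Ctrl cells and 1.32 and 1.42 FPKM in knockdown cells, but 1.56 and 1.29 FPKM in the libraries labelled CBAP-reconstituted and 15.0 and 14.9 FPKM in knockout cells. The knockout libraries were above all others, and the knockdown libraries overlapped with those labelled CBAP-reconstituted. VEGFA fell by 1.02 in the knockdown (SE 0.18, adjusted p = 0.0243) and rose by 2.72 in the knockout (SE 0.18, adjusted p = 0.000207), a 10.5-fold higher mean FPKM. The difference between the sets was −3.73 (SE 0.25, adjusted p = 0.00046). The knockout change and the difference were called in 8 of 8 fits that left out 1 library. The knockdown call was lost without CBAP-reconstituted replicate 1 or 2 (adjusted p = 0.0726 and 0.0729), CBAP knockdown replicate 1 (0.0521) or CBAP knockout replicate 1 or 2 (both 0.0549).

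With the 4 libraries of the shRNA set fitted alone, 0 of the 8 members were called in the knockdown by limma, and HIF1A, BNIP3 and VEGFA had adjusted p-values of 0.199, 0.207 and 0.191, with 3 members at an unadjusted p under 0.05. That fit called 75 of the 11427 genes. The knockdown calls of the other pathway genes named below were lost in that fit as well. The main fit shares 1 spread estimate over the 4 conditions, whose replicate SDs differed. In sh-Ctrl, knockdown, CBAP-reconstituted and knockout libraries, in that order, the SD as a percent of mean FPKM was as follows. HIF1A had 1.8, 18.4, 0.70 and 4.6, BNIP3 had 22.8, 10.2, 1.7 and 12.1, and VEGFA had 32.7, 5.4, 13.4 and 0.59. The part of these differences in the calls was not tested. With the 4 libraries of the CRISPR set fitted alone, 5 of the 8 members were called in the knockout, as EGLN1 then passed the threshold (0.40, adjusted p = 0.00457), and that fit called 7749 of the 11427 genes.

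The order of the conditions differed between the genes. Across the sets, the median log2 change of all genes tested was 0.17 between the libraries labelled CBAP-reconstituted and sh-Ctrl, and 0.20 between knockout and knockdown, and it was 0.05 and −0.03 after median scaling. These comparisons share libraries with those above and are given as levels relative to that median. The libraries labelled CBAP-reconstituted were lower than sh-Ctrl by 1.03 below the median in BNIP3 (log2 change −0.87, adjusted p = 0.0115), by 1.15 below it in VEGFA (−0.98, adjusted p = 0.0096) and by 0.74 below it in EGLN1 (−0.58, adjusted p = 0.0362). These 3 of 8 members, all lower, were called, against 39.4% of all genes (28.7% higher and 10.7% lower). The BNIP3 call was lost without CBAP-reconstituted replicate 1 or 2 (adjusted p up to 0.0748), that of VEGFA without CBAP-reconstituted replicate 2 (0.0712), and that of EGLN1 without 5 libraries, which were sh-Ctrl replicate 1 and both replicates of CBAP-reconstituted and CBAP knockout (up to 0.157). EGLN3, without a minimum FPKM, was 0.82 higher in the libraries labelled CBAP-reconstituted than in sh-Ctrl (adjusted p = 0.00266).
Between knockout and knockdown, 3 of 8 members were called, 2 higher and 1 lower, against 52.8% of all genes (37.9% higher and 14.8% lower). VEGFA was 2.55 above the median change (log2 change 2.75, adjusted p = 0.000223), VHL was 0.24 above it (0.44, adjusted p = 0.00355) and BNIP3 was 0.88 below it (−0.68, adjusted p = 0.018). The BNIP3 call was lost without CBAP knockdown replicate 2 or CBAP knockout replicate 1 (adjusted p up to 0.0841). HIF1A was 0.52 below the median change (−0.32, adjusted p = 0.0709), and it passed the threshold under median scaling (−0.55, adjusted p = 0.00492).

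On the length-corrected FPKM scale, the means over the 8 libraries ran from 41.9 for VHL and 35.9 for HIF1A, through 28.3 for BNIP3L, 16.1 for HIF1AN, 14.4 for BNIP3 and 12.4 for ARNT, to 6.60 for EGLN1, 5.41 for VEGFA and 0.767 for EGLN3. The 3 genes whose log2 levels followed HIF1A most closely over the 8 libraries were PICALM (Pearson r = 0.994), CD3D (0.984) and EIF4A2 (0.962). CD3D, a subunit of the T cell receptor complex, ran from 446 FPKM in sh-Ctrl replicate 1 to 553 FPKM in CBAP knockdown replicate 2, the same libraries that were lowest and highest for HIF1A. These correlations describe 8 libraries that share 4 lines.

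Other subunits of the factor and partners of VHL in its ligase had 7 of 9 genes with a row, all tested. In the knockdown 2 were called higher (3.62% of all genes were) and 1 lower (8.7%), and under quantile normalization and median scaling 2 were called higher and 0 lower. In the knockout 1 was called higher (23.9%) and 3 lower (25.9%), with a median change of −0.23 against 0.00 for all genes. EPAS1, the alpha subunit of HIF-2, measured 0.332 and 0.253 FPKM in sh-Ctrl cells, 0.763 and 0.792 FPKM in knockdown cells, 0.808 and 0.623 FPKM in the libraries labelled CBAP-reconstituted and 3.78 and 3.55 FPKM in knockout cells. EPAS1 passed the minimum mean of 1 FPKM through the knockout libraries alone, so its place among the tested genes came from the condition where it is high. Its fitted log2 changes of 0.46 in the knockdown and 1.45 in the knockout are given as a description. EPAS1 is 1 of the genes counted as called higher in each set. It was the only one in the knockout, and CREBBP was the only other one in the knockdown. The higher counts of this list are therefore not read against the shares of all genes. RBX1, the RING subunit that recruits the ubiquitin-conjugating enzyme, fell in both sets. It measured 91.4 and 90.9 FPKM against 77.2 and 78.7 FPKM in the shRNA set, a log2 change of −0.22 (adjusted p = 0.0372), and 130 and 138 FPKM against 59.3 and 58.8 FPKM in the CRISPR set, a change of −1.16 (adjusted p = 3.87e-05). In the knockout the elongins that bridge VHL to the ligase also fell, TCEB2 (elongin B) by 0.62 (adjusted p = 0.000311) and TCEB1 (elongin C) by 0.40 (adjusted p = 0.0116). TCEB1 measured 35.7 FPKM in both libraries labelled CBAP-reconstituted and 25.35 and 28.46 FPKM in the knockout. Its sh-Ctrl libraries, at 24.75 and 28.13 FPKM, were near the knockout level. TCEB2 was at 114.9 and 113.3 FPKM in the knockout, below the 173.3 and 167.4 FPKM of sh-Ctrl cells. The coactivator CREBBP rose in the knockdown by 0.34 (adjusted p = 0.0378).
The knockdown calls of this list were lost in many fits that left out 1 library, also where that library was outside the comparison. That of EPAS1 was lost without each of the 8 libraries (adjusted p from 0.0541 to 0.0975), that of RBX1 without each library except CBAP knockdown replicate 2 (up to 0.0923) and under quantile normalization and median scaling (0.127 and 0.0727) and without the variance trend (0.0594), and that of CREBBP without each library except sh-Ctrl replicate 2 and CBAP knockdown replicate 1 (up to 0.109). With the replicate block these knockdown calls were lost for EPAS1 (0.0614), RBX1 (0.0652) and CREBBP (0.0604). The TCEB1 call was lost without CBAP-reconstituted replicate 1 or 2 or CBAP knockout replicate 1 (up to 0.0671). The knockout calls of RBX1 and TCEB2 were kept in 8 of 8.

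Of 10 modulators of HIF stability and activity, all tested, limma called 0 in the knockdown, where 1 had an unadjusted p under 0.05, and 2 higher and 4 lower in the knockout. The shares of all genes called were 12.3% in the knockdown and 23.9% higher and 25.9% lower in the knockout, where 49.9% were called in all. USP20, a deubiquitinase of HIF1A, was at 14.6 and 15.1 FPKM in the libraries labelled CBAP-reconstituted and at 53.4 and 52.8 FPKM in the knockout, a log2 change of 1.78 (adjusted p = 7.46e-05). CITED2, which competes with HIF1A for coactivators, rose by 1.03 (adjusted p = 0.000749). The chaperones HSP90AB1 and HSP90AA1, which stabilize HIF1A protein, fell by 1.20 (adjusted p = 0.000698) and 0.88 (adjusted p = 0.00288), and COPS5, a COP9 signalosome subunit, fell by 0.76 (adjusted p = 0.000169). HSP90AB1 measured 794 and 788 FPKM in the libraries labelled CBAP-reconstituted and 342 and 344 FPKM in the knockout. These 5 knockout calls were kept in 8 of 8 fits that left out 1 library.

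All 21 glycolytic HIF targets were tested, and in the knockdown limma called 0 higher and 3 lower (1 and 12 had an unadjusted p under 0.05), where 3.62% and 8.7% of all genes were called, with a median log2 change of −0.23 against −0.06 for all genes. In the knockout 2 were called higher and 10 lower, where 23.9% and 25.9% of all genes were, with a median of −0.19 against 0.00. The 12 called in the knockout are a share near the 49.9% of all genes. Under quantile normalization the calls were 1 higher and 2 lower in the knockdown and 3 higher and 8 lower in the knockout, the knockout median was −0.07, and ALDOA and PGK1, otherwise called lower, had changes of 0.15 and 0.10. Under median scaling the knockdown had 1 higher and 3 lower. The knockout then had 2 higher and 12 lower, with a median of −0.26 against −0.07 for all genes. ENO1 (enolase), GPI (glucose-6-phosphate isomerase) and TPI1 (triosephosphate isomerase) fell in both sets. ENO1 measured 982 and 977 FPKM in sh-Ctrl cells and 724 and 766 FPKM in the knockdown, a change of −0.40 (adjusted p = 0.00954). In the CRISPR set it measured 1087 and 1086 FPKM in the libraries labelled CBAP-reconstituted and 536 and 532 FPKM in the knockout, a change of −1.02 (adjusted p = 5.91e-05).
GPI fell by 0.32 (adjusted p = 0.0302) in the knockdown and 0.85 (adjusted p = 0.000308) in the knockout, and TPI1 by 0.55 (adjusted p = 0.0114) and 0.61 (adjusted p = 0.00136). The platelet-type phosphofructokinase PFKP fell in the knockout by 0.73 (adjusted p = 0.00032). The lactate exporter SLC16A3 and the glucose transporter SLC2A3 went the other way in the knockout, rising by 1.12 (adjusted p = 0.00845) and 1.05 (adjusted p = 0.00609). Another glucose transporter, SLC2A1, fell in the knockout by 0.70 (adjusted p = 0.000613). SLC16A3 measured 2.64 and 2.28 FPKM in the libraries labelled CBAP-reconstituted and 6.68 and 6.30 FPKM in the knockout. Its sh-Ctrl libraries were above the knockout, at 10.81 and 8.61 FPKM. SLC2A3 measured 2.51 FPKM in both libraries labelled CBAP-reconstituted and 6.36 and 6.16 FPKM in the knockout.
In all, 3 of the 21 were called in both sets, compared with 942 of all 11427 genes. The knockdown calls of ENO1 and TPI1 were lost without CBAP-reconstituted replicate 2 (adjusted p = 0.0502 and 0.0501), that of GPI without either replicate of sh-Ctrl, CBAP-reconstituted or CBAP knockout (up to 0.0866), under quantile normalization (0.055) and with the replicate block (0.0619), and the knockout call of SLC16A3 without CBAP-reconstituted replicate 2 (0.0565). With 1 library left out, the numbers of lower calls in both sets changed, as did the calls over all genes.

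The other HIF targets moved differently in the sets. Of 32 named genes, 24 had a row and 20 were tested, with 1 called higher and 3 lower in the knockdown (median −0.26, all genes −0.06) and 9 higher and 3 lower in the knockout (median 0.48, all genes 0.00). The shares of all genes called were 3.62% higher and 8.7% lower in the knockdown and 23.9% higher and 25.9% lower in the knockout, so that the 12 of 20 called in the knockout are near the 49.9% of all genes. In the test of the difference between the sets, 2 of the 20 were called higher and 11 lower, where 15.5% and 18.3% of all genes were. RORA, a nuclear receptor, rose in both sets. It went from 3.84 and 3.78 FPKM to 6.51 and 7.05 FPKM in the shRNA set, a log2 change of 0.69 (adjusted p = 0.00566), and from 3.45 and 3.50 FPKM to 6.74 and 6.81 FPKM in the CRISPR set, a change of 0.80 (adjusted p = 0.000451).
The lipid droplet gene HILPDA, the collagen prolyl hydroxylase gene P4HA1 and ZNF395 fell in the knockdown, by 0.63 (adjusted p = 0.00864), 0.54 (adjusted p = 0.0456) and 0.48 (adjusted p = 0.0221). In the knockout the lipoprotein receptor gene VLDLR rose by 1.92 (adjusted p = 0.00149), from 5.97 and 5.71 FPKM to 25.0 and 24.7 FPKM. The chemokine receptor gene CXCR4 rose by 1.11 (adjusted p = 0.00908) and DDIT4, an inhibitor of mTORC1, by 1.04 (adjusted p = 0.0115). DDIT4 measured 8.55 and 8.86 FPKM in the libraries labelled CBAP-reconstituted and 18.76 and 19.19 FPKM in the knockout. The knockout values lay inside the sh-Ctrl range of 16.95 to 28.55 FPKM. CXCR4 was at 350.1 and 353.8 FPKM in the knockout, above the 250.6 and 184.4 FPKM of sh-Ctrl cells. ANKRD37 fell by 1.01 (adjusted p = 0.00195), the mitochondrial protein gene FAM162A by 0.51 (adjusted p = 0.0118) and the transferrin receptor gene TFRC by 0.50 (adjusted p = 0.00313).
The call of P4HA1 was lost without each of the 8 libraries (adjusted p from 0.0527 to 0.139), under both scalings (0.0651 and 0.0593) and with the replicate block (0.0847), and that of ZNF395 without either replicate of CBAP-reconstituted or CBAP knockout (up to 0.0758). The calls of CXCR4 (up to 0.0532) and DDIT4 (up to 0.0648) were lost without CBAP-reconstituted replicate 1 or 2, that of DDIT4 also without CBAP knockout replicate 2, and that of FAM162A without CBAP-reconstituted replicate 2 or CBAP knockout replicate 2 (up to 0.0748). Those of RORA in both sets, of HILPDA, VLDLR, ANKRD37 and TFRC were kept in 8 of 8. With 1 library left out, lower calls in the knockdown and higher calls in the knockout changed in number, as did calls over all genes.

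Of the other VEGF ligands and receptors, 5 of 9 had a row and 3 were tested. FLT1, a receptor of VEGFA, rose in both sets, from 6.64 and 7.84 FPKM to 14.5 FPKM in both knockdown libraries (log2 change 0.91, adjusted p = 0.00726) and from 3.05 and 3.44 FPKM to 5.38 and 5.01 FPKM in the knockout (0.55, adjusted p = 0.00578). FLT4, a receptor of VEGFC and VEGFD, fell in the knockout by 0.82 (adjusted p = 0.0347), from 15.4 and 16.5 FPKM to 8.38 and 8.76 FPKM. That call was lost without either replicate of sh-Ctrl, CBAP-reconstituted or CBAP knockout. FLT4 was lower in sh-Ctrl cells than in the knockout, at 4.96 and 5.43 FPKM. VEGFB was listed at 0 in both libraries labelled CBAP-reconstituted and ran from 24.2 to 29.2 FPKM in the 6 others, so no fold change is given for it.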

How the data were processed

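The deposited table gives FPKM per gene for 8 libraries. Per the labels and the study's methods, the authors sequenced the libraries as paired ends on an Illumina instrument, called bases with CASAVA 1.8, aligned reads to hg19 with TopHat and made the FPKM values with Cufflinks and Cuffdiff; the Cufflinks version, annotation and strand setting were not given in the sources used here. No read counts were given with the FPKM, so depth is unknown; summed FPKM ran from 362082 to 434742 per library. Replicates held different values. Values were tested as log2(FPKM + 1), where a fold change understates the change of low genes, with limma 3.58.1 (R 4.3.3, empirical Bayes with trend), for genes with a mean of at least 1 FPKM, with Benjamini-Hochberg adjustment over all 11427 genes and a threshold of 0.05. The 4 within-set and cross-set comparisons and the difference between the sets came from 1 fit with a mean per condition; the comparison of deficient with expressing cells had no covariate, after the study's pooling. The code was tested on simulated data. EGLN3 was fitted without the minimum.

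The members and gene lists were chosen with earlier results of these data known. From each other list, up to 3 called genes with the largest change per direction and comparison, and any gene called in both sets, were named, and the 3 genes with the highest correlation with HIF1A. SLC2A1 was named as well, beside the glucose transporter SLC2A3. Positions are from GENCODE on GRCh37. Its gene bounds and overlaps need not match the RefSeq starts used for the promoters. They also need not match the annotation behind the FPKM values, which is unknown. Alternatives changed the pseudocount, filter, scaling, trend, samples and covariates, used the replicate number as a block, or left out 1 library. Same-numbered libraries' deviations from their condition means correlated at −0.06 to 0.15, so the numbers were not taken as pairs.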

Additional observations from a re-analysis of the deposited data

Results flagged for a closer look

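The change of HIF1A in the knockdown exceeded that in the knockout by 0.64 on the log2 scale (limma, adjusted p = 0.0363), and for VEGFA the same difference was −3.73 (adjusted p = 0.00046), with a fall in both knockdown libraries and a rise in both knockout libraries.

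In 4 of 20 groups of 4 CBAP-expressing or 4 CBAP-deficient libraries, 1 library lay far from the other 3, measured as the gap to its nearest neighbor over the range of the group. Chance flags about 1 in 20 such groups when the 4 libraries are alike and independent, but each group here joins 2 conditions and the same libraries recur over the genes. Among the deficient libraries CBAP knockdown replicate 1 was low for EGLN1 (gap over range 0.869) and CBAP knockdown replicate 2 was high for HIF1AN (0.883). Among the expressing libraries sh-Ctrl replicate 2 was low for HIF1AN (0.968) and for BNIP3L (0.871). The HIF1AN libraries involved differed by little in level, from 15.6 to 16.7 FPKM.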

How the results depend on the processing

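Each value was recomputed with other pseudocounts, filters and scalings, without the variance trend, on fewer libraries and with added covariates. Of 432 such values, 404 kept their direction and their side of the threshold, 6 lost a call, 12 gained one and 10 changed sign. Most of these values were not called in the main fit. The fits that left out 1 library are not among the 432, and a smaller share of values was kept there. The number of members called between knockout and knockdown went from 3 to 5 under quantile normalization and to 5 under median scaling. All genes called there, of 11427, went from 6028 to 5564 and 5615. With the set as a covariate, the members called over all deficient and expressing libraries went from 0 to 1, and all genes from 71 to 1404. With only the libraries compared, the members called in the knockdown went from 3 to 0, and all genes from 1408 to 75. In the knockout the same alternative took the members from 4 to 5 and all genes from 5697 to 7749. The cause was not tested.

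Signs changed for small changes without a call. Quantile normalization gave 0.031 for VHL and −0.020 for EGLN1 over all libraries, −0.109 for HIF1AN between the libraries labelled CBAP-reconstituted and sh-Ctrl, and −0.010 for ARNT and −0.098 for EGLN1 between knockout and knockdown. Median scaling gave −0.036 for HIF1A and −0.020 for VHL in the knockout, −0.077 for HIF1AN between the libraries labelled CBAP-reconstituted and sh-Ctrl, and −0.022 for ARNT and −0.069 for EGLN1 between knockout and knockdown. The cause was not tested.

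Fits with 1 library left out leave a condition with a lone library assumed to vary like the others. The number of members called then changed in every comparison except that over all libraries. The number of all genes called changed in every comparison, so the changes among the members are not particular to them. Changes that crossed 0 ran from −0.477 to 0.055 for BNIP3L, −0.102 to 0.125 for ARNT and −0.033 to 0.050 for HIF1AN in the knockdown, −0.017 to 0.076 for HIF1A in the knockout, −0.414 to 0.035 for BNIP3 between the sets, −0.0022 to 0.081 for HIF1AN between the libraries labelled CBAP-reconstituted and sh-Ctrl, and −0.074 to 0.199 for EGLN1 and −0.148 to 0.010 for VHL over all libraries.

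With the replicate number as a block, members called numbered 2 in the knockdown and 4 in the knockout. Of all 11427 genes, 776 and 5362 were called in these comparisons. Among the members, the calls lost were BNIP3 in the knockdown (−0.81, adjusted p = 0.0692) and EGLN1 between the libraries labelled CBAP-reconstituted and sh-Ctrl (−0.58, adjusted p = 0.0604), and the numbers pair no samples by the labels. FPKM without depth gives no counting error.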
